A study of Mus musculus with 69 samples.

Results

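Spon1 and Spon2, the genes of the secreted matrix proteins F-spondin and mindin, were followed in mouse lung after a nano-TiO2 particle was placed in the airways. The array held 4 probes for these 2 genes out of 41174 probes, 2 per gene. They were found by the transcript accession that the scanner files give (NM_145584 for Spon1, NM_133903 for Spon2), matched to RefSeq symbols, and the 2 genes are 2 of 18664 tested. Spon2 was picked on its log2 ratios with NRCWE-030 on day 28, where it fell with dose in an earlier look at the same arrays, and Spon1 was taken along as the other spondin gene on the list of members. All comparisons of Spon2 whose difference uses day 28 arrays with NRCWE-030 or the day 28 controls are therefore given as a description with no test.

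Each of the 69 arrays held lung RNA of 1 female C57BL/6 mouse in Cy5 (red) and a commercial pool, Universal Mouse Reference RNA, in Cy3 (green). The mice arrived at 5 to 7 weeks of age, were rested for 1 to 3 weeks, and were given 18, 54 or 162 µg of NRCWE-025 or NRCWE-030 once through the trachea, or the vehicle, water with 2% serum. Lungs were taken on day 1 or day 28, and RNA came from a small frozen piece of each lung, so that the cells in a piece may vary from mouse to mouse. This made 14 groups of 5 arrays, except NRCWE-025 at 162 µg on day 28 with 4, and both materials were set against the same controls of a day. The mice were kept in 12 h of light and 12 h of dark, and the hour of collection is not given in the sources used here.

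The spondins share a spondin domain and thrombospondin repeats and are laid down in the extracellular matrix. Mindin binds bacterial surface molecules such as lipopolysaccharide and acts as a ligand for integrins of leukocytes, so it is known as a matrix protein of innate immune recognition. F-spondin was first described in the floor plate of the developing nervous system, where it guides axons, and it binds the amyloid precursor protein and lipoprotein receptors.

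Levels are given as the log2 of Cy5 over Cy3, lung against reference, after normexp background correction and loess within each array, and a difference of 1 between groups is a 2-fold difference in lung RNA. All 4 probes were well above background in Cy5 on 69 of 69 arrays, and over arrays 49.1% to 72.8% of all probes were. In the Cy3 reference both Spon2 probes were well above background on 69 arrays, but the Spon1 probes on only 21 (A_51_P151902) and 14 (A_52_P242321), so the ratios of Spon1 rest on a dim reference. Markers of lung cells were present as the label says: the 5 alveolar type 2 markers, 4 alveolar type 1 markers and 3 club cell markers tested were well above background on all arrays. So were 6 of 7 heart muscle markers, and the mean log2 ratio of the 7 ran from 0.14 to 4.94 over arrays. In bulk RNA, fewer cells that make a transcript and less of it per cell cannot be told apart.

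One array of the day 1 controls lay far from the other 4. Replicate 3 of the vehicle controls of day 1 had a Spon2 log2 ratio of -2.01, while the other 4 controls of that day lay between -0.60 and 0.32. On the same array Arntl, the clock activator also called Bmal1, was at -1.70 against 0.36 to 0.82 in the other 4, and Dbp, a transcription factor driven by the clock, was at 2.26 against -0.69 to -0.25. For Spon2 its gap to the next control was 0.603 of the range of the group, under Dixon's critical value of 0.71 for 5 samples. The Spon2 value is therefore not an outlier by that test, which was not applied to Arntl or Dbp. Differences from the day 1 controls are given with and without this array, a choice made after seeing the data.

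Spon2 was low in most of the groups given NRCWE-030. On day 28 the controls were at 0.48, 0.34, 0.27, -0.46 and -0.09. With 18 µg of NRCWE-030 the arrays were at -0.99, -0.50, -0.73, -0.48 and 0.02. With 54 µg they were at -1.59, -1.86, -1.73, -1.92 and -1.01. All arrays at 54 µg were below all controls, and at 18 µg 4 of 5 were. At 162 µg the values were -1.72, -1.94, -2.33, -2.21 and -1.75, again all below the controls.

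The differences from control on day 28 with NRCWE-030 were -0.65 ± 0.20 (SE) at 18 µg, -1.73 ± 0.20 at 54 µg and -2.10 ± 0.20 at 162 µg, with 5 arrays in each group. The last is a 4.28-fold lower level, with a 95% confidence interval on the log2 scale of -2.52 to -1.68. These are the values that chose the gene and stand as a description: over all genes 0.118%, 0.0536% and 0.0964% were called at the 3 doses at an adjusted p under 0.05, and 0.102% in the F-test over doses. On the 3 slides that held both a control and a 162 µg array, the difference within the slide was -2.20, -2.21 and -2.24. At 54 µg the same 3 slides gave -2.07, -2.13 and -1.64, and at 18 µg -1.47, -0.77 and -0.64. Among the treated lungs alone, 54 µg minus 18 µg was -1.08 ± 0.19 and 162 µg minus 54 µg was -0.37 ± 0.19.

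**Figure D1:**
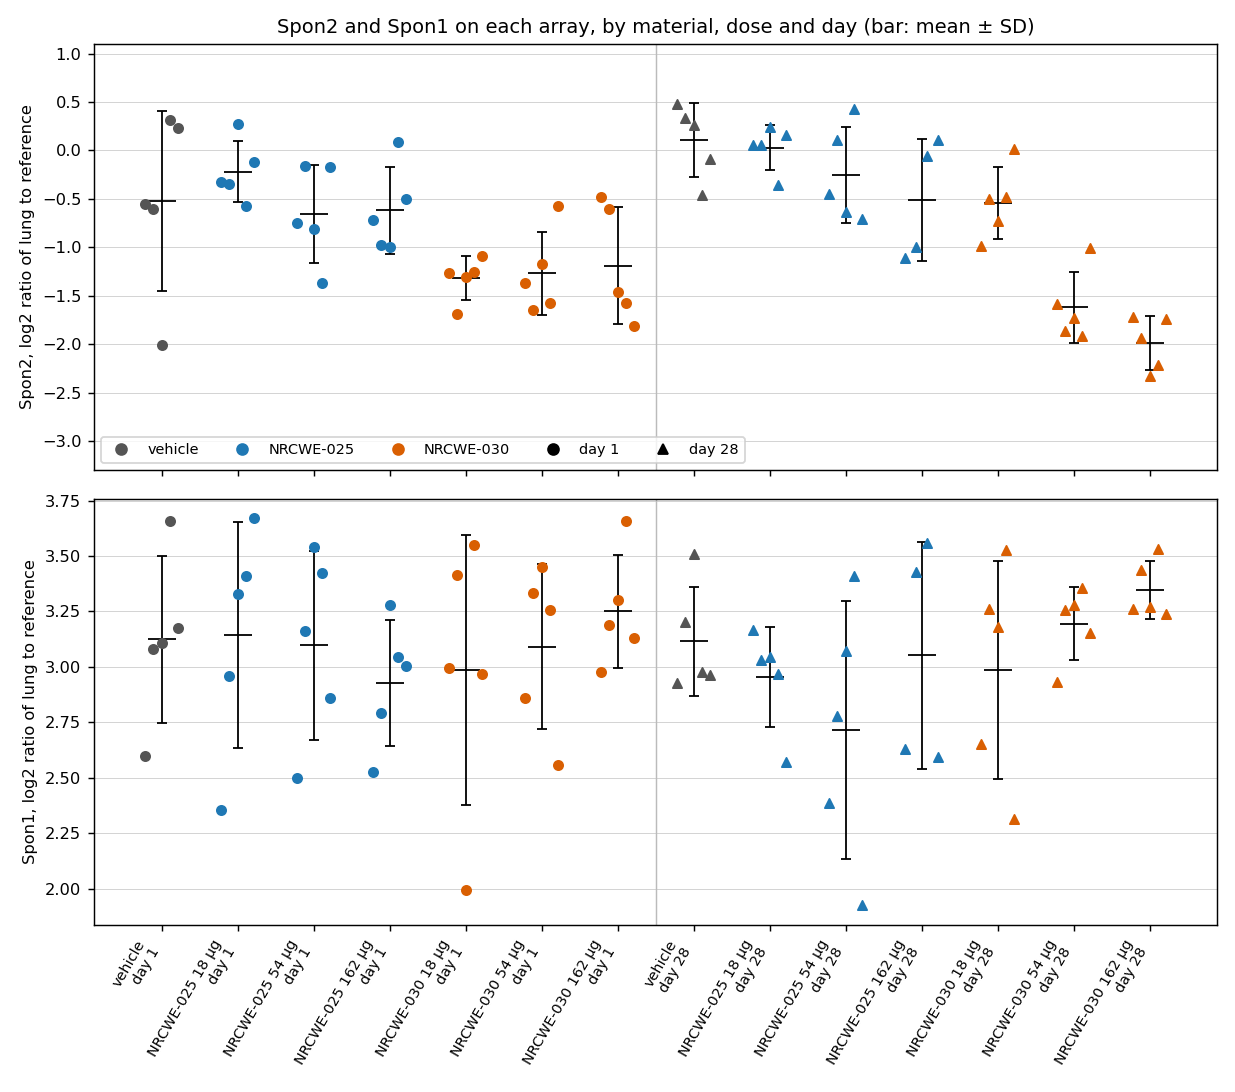
Log2 ratio of lung to reference for Spon2 (top) and Spon1 (bottom) on each of 69 arrays, by group along the horizontal axis (grey vehicle, blue NRCWE-025, orange NRCWE-030; circles day 1, triangles day 28); the bars give the mean ± SD. Spon2 at 54 and 162 µg of NRCWE-030 on day 28 lies below all day 28 controls, whereas the groups of Spon1 overlap throughout.

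With NRCWE-025 on day 28 Spon2 was close to the controls at the low dose and spread at the high dose. At 18 µg the arrays were at 0.05, 0.05, 0.24, -0.35 and 0.16, and at 54 µg they were at -0.45, 0.11, -0.64, 0.43 and -0.71. At 162 µg 2 of the 4 arrays were low (-1.11 and -1.0) and the other 2 (-0.06 and 0.11) lay within the range of the controls. The differences from control were -0.08 ± 0.26, -0.36 ± 0.26 and -0.62 ± 0.27 in order of dose, beside 0.0589%, 0.0268% and 0.0161% of all genes called and 0.0268% in the F-test over doses. A test that leaves the controls out, and so is free of the arrays on which Spon2 was picked, did not separate the 3 doses (moderated F-test, limma, adjusted p = 0.999, unadjusted p = 0.184, 0% of all genes called). The interval of the difference between 162 and 18 µg ran from -1.14 to 0.05.

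On day 1 Spon2 lay low at every dose of NRCWE-030. The controls were at -0.55, -0.60, -2.01, 0.32 and 0.23. The arrays at 18 µg were at -1.26, -1.69, -1.30, -1.25 and -1.09. At 54 µg they were at -1.37, -1.65, -1.17, -1.57 and -0.57. At 162 µg they spread most, at -0.48, -0.60, -1.47, -1.58 and -1.81. All 15 arrays were below the 2 highest controls and none was below the control at -2.01, so the groups overlapped.

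The differences from control on day 1 with NRCWE-030 did not pass the test. They were -0.80 ± 0.35 at 18 µg (adjusted p = 0.643), -0.75 ± 0.35 at 54 µg (adjusted p = 0.558) and -0.67 ± 0.35 at 162 µg (adjusted p = 0.463), and the exact two-sided permutation p over the 10 arrays was 0.127, 0.151 and 0.222. The F-test over doses gave an adjusted p of 0.605. Of all genes 0.00536%, 0.0804% and 1.69% were called at the 3 doses and 0.954% in the F-test. Without replicate 3 of the controls the differences were -1.17 ± 0.28, -1.12 ± 0.28 and -1.04 ± 0.28, and the adjusted p values were 0.255, 0.108 and 0.0801, with 0.1 for the F-test.

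Within slides the day 1 differences with NRCWE-030 were -1.58 and -1.53 at 18 µg, -0.77, -1.97 and -0.80 at 54 µg, and -0.80 and -1.69 at 162 µg. These 7 differences share 3 controls, replicates 2, 4 and 5, and replicates 4 and 5 were above all NRCWE-030 arrays of the day, so the signs on their slides were given. None of these slides held replicate 3 of the controls. The doses of NRCWE-030 could not be set in order on day 1, since 162 µg differed from 18 µg by 0.13 with an interval from -0.41 to 0.67.

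With NRCWE-025 on day 1 Spon2 lay within the range of the 5 controls at every dose, but 6 of the 15 arrays were below the other 4 controls when replicate 3 was set aside. At 18 µg the arrays were at -0.33, -0.34, 0.27, -0.57 and -0.12, at 54 µg at -0.75, -0.16, -0.82, -1.37 and -0.17, and at 162 µg at -0.72, -0.97, -0.99, 0.09 and -0.51. The differences from control were 0.30 ± 0.34 at 18 µg, -0.13 ± 0.34 at 54 µg and -0.10 ± 0.34 at 162 µg. The lowest adjusted p of the 3 was 0.938 and the F-test over doses gave an adjusted p of 0.892, in comparisons that called 0%, 0% and 0.209% of all genes, and 0.0214% in the F-test. Without replicate 3 of the controls they were -0.07, -0.50 and -0.47, all ± 0.27, so the sign at 18 µg turned with this 1 array. On the slide that held it, all 3 doses of NRCWE-025 were above the control, by 1.66, 1.84 and 1.03, and on the other slide with a control the differences were 0.22, -0.20 and -0.17.

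**Figure D2:**
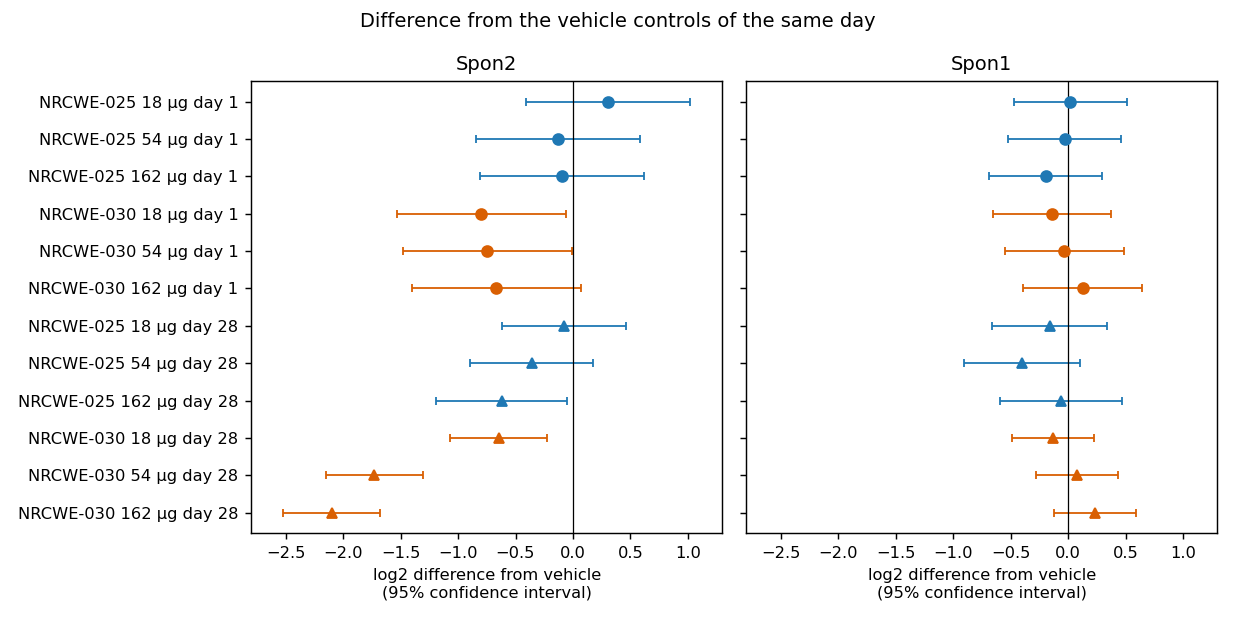
Difference in log2 ratio from the vehicle controls of the same day for Spon2 (left) and Spon1 (right), 1 row per material, dose and day, with the 95% confidence interval of the limma fit. Spon2 with 162 µg of NRCWE-030 on day 28 is at -2.10, and the 12 differences of Spon1 lie between -0.40 and 0.23.

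The materials can be compared with no control in the difference itself. The SE and the limma p values still take their spread from all 14 groups. These include the controls and the day 28 arrays on which Spon2 was picked. The exact permutation p uses only the arrays compared. At 18 µg on day 1 the 5 arrays with NRCWE-030 (-1.69 to -1.09) all lay below the 5 with NRCWE-025 (-0.57 to 0.27), a difference of -1.10 ± 0.29 with an exact two-sided permutation p of 0.00794, the smallest that 5 against 5 arrays can give. Over all genes the adjusted p of this difference was 0.212. At 54 µg on day 1 the groups overlapped, with a difference of -0.61 ± 0.29 (exact permutation p = 0.0873). At 162 µg it was -0.57 ± 0.29 (exact permutation p = 0.135).

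For Spon2 the F-test of the 3 material differences of day 1 gave an adjusted p of 0.0899, just over the threshold, while 0.155% of all genes were called. For Spon2 the same test gave 0.0163 once slide entered as a random block, 0.0375 with the log ratio of the scanner software, 0.0499 with scan day as a block and 0.0257 with the Cy5 channel alone, a setting chosen after seeing the data. In the other 10 of 14 settings it did not pass, from 0.0512 with slide as a fixed block to 0.257 with probe A_51_P434017 by itself, and probe A_52_P381484 by itself gave 0.0741. It was 0.0448 without replicate 1 of NRCWE-030 at 162 µg, and at most 0.195 with any other of the 30 treated day 1 arrays left out. Values without an array of the other groups, which enter the shared spread, are not given. On 2 slides that held 18 µg of both materials the differences were -1.13 and -1.12, but at 54 µg they were -1.40 and 0.20 and at 162 µg they ranged from -1.67 to 0.39 over 3 slides. On day 28, given as a description beside 0.241% of all genes called in the F-test, the differences between materials were -0.57 ± 0.29, -1.37 ± 0.29 and -1.48 ± 0.31 in order of dose.

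Over the 14 groups the mean of Spon2 ran from -1.99 ± 0.28 (SD) with 162 µg of NRCWE-030 on day 28 to 0.11 ± 0.38 in the controls of day 28. The 5 lowest groups were NRCWE-030 at 162 and 54 µg on day 28 and at the 3 doses on day 1, while NRCWE-030 at 18 µg on day 28 (-0.54 ± 0.37) stood 8th, next to the day 1 controls (-0.52 ± 0.93). Between them and the next, NRCWE-025 at 54 µg on day 1 with -0.65 ± 0.51, lay a gap of 0.53. It was the only 1 of 13 gaps between neighbours that was wider than the pooled SD within groups of 0.48. All other gaps were within this spread of single arrays, which is not a test of the means.

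The controls themselves were not level, and no slide held controls of both days, so day and slide cannot be told apart here. Spon2 was 0.63 ± 0.29 higher in the controls of day 28 than in those of day 1, given as a description beside 0.0375% of all genes called, and 0.26 ± 0.28 higher without replicate 3 of day 1. At 162 µg of NRCWE-030 the difference from control on day 28 minus that on day 1 was -1.43 ± 0.41, beside 0.198% of all genes called, and -1.06 ± 0.38 without that array. The same quantity was 0.15 ± 0.41 at 18 µg and -0.98 ± 0.41 at 54 µg. With 162 µg of NRCWE-025 the effect of day 28 minus that of day 1 was -0.52 ± 0.43, beside 0.0589% of all genes called.

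Both probes of Spon2 gave the same order of size. Their median signals over background were 565.0 and 1794 in Cy5 and 1827 and 3388 in Cy3. Over 69 arrays their log2 ratios correlated with r = 0.978, and the deviations from the group means with r = 0.95. With 162 µg of NRCWE-030 on day 28 A_51_P434017 was at -2.07 ± 0.21 from control and A_52_P381484 at -2.12 ± 0.20. The dye channels could also be read apart. After loess and a quantile normalization of the mean brightness, the group means of the Cy3 reference for Spon2 stayed between 10.88 and 11.17 on the log2 scale, and those of Cy5 ran from 9.18 in the 162 µg group of NRCWE-030 on day 28 to 11.18 in the controls of day 28.

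**Figure D3:**
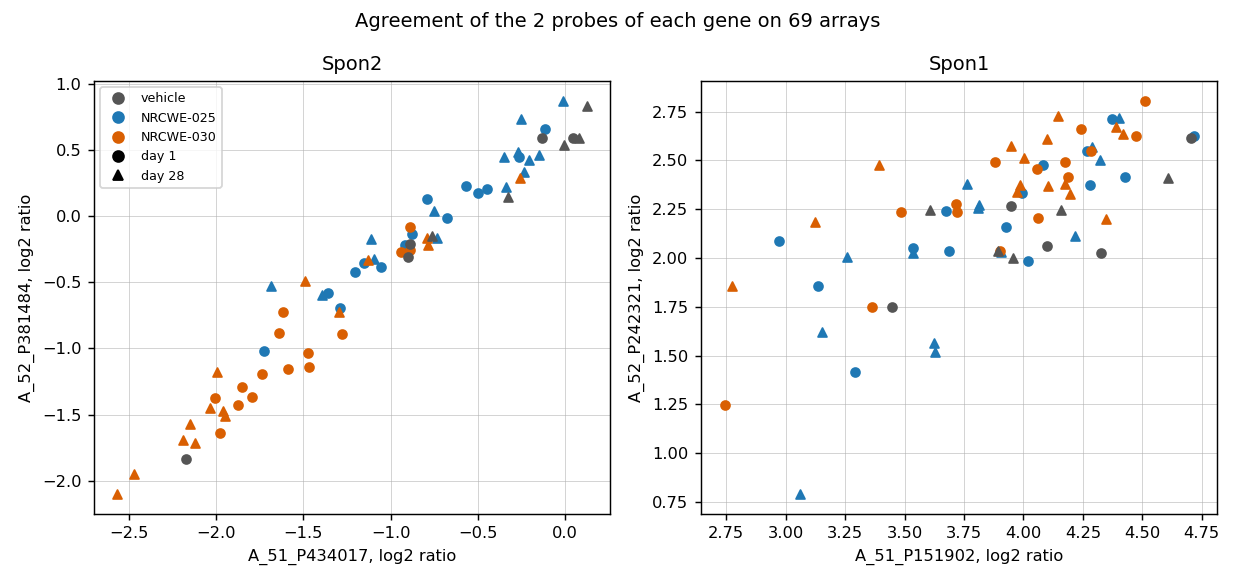
Log2 ratio of lung to reference by the 2 probes of Spon2 (left) and of Spon1 (right), 1 point per array, colours and shapes as in the plot of the groups. The Spon2 probes lie along a line (r = 0.978), and those of Spon1 scatter more widely (r = 0.734).

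**Figure D4:**
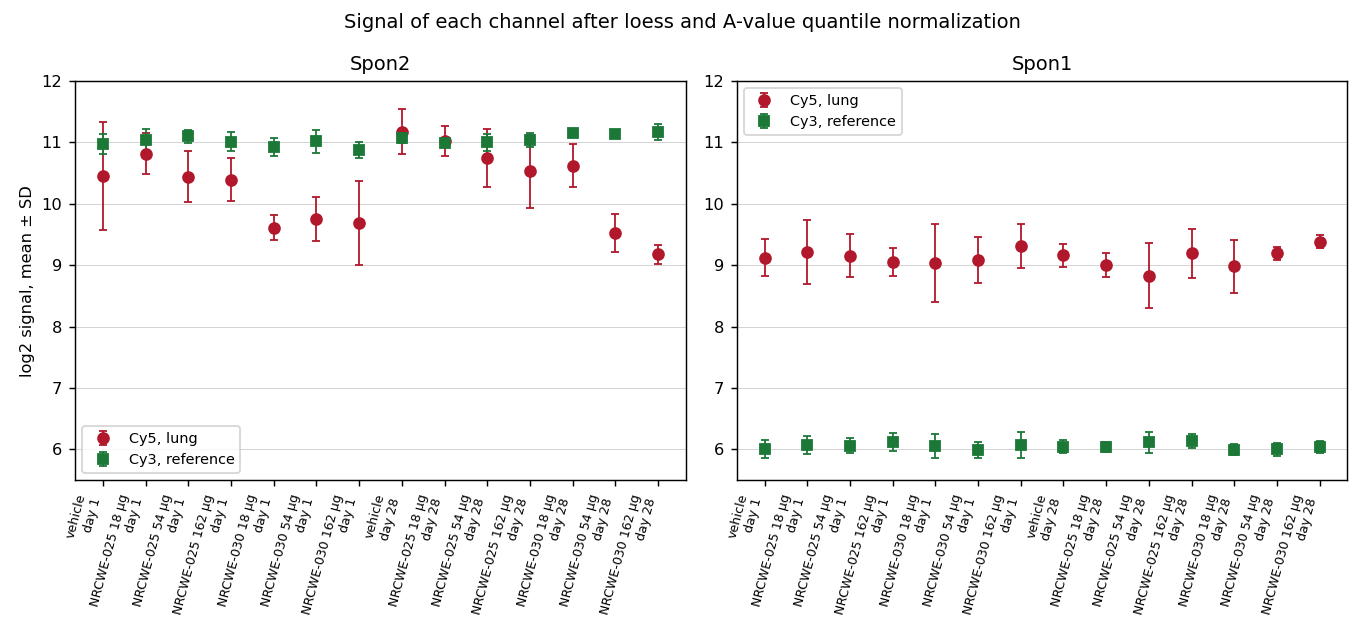
Mean ± SD over arrays of the log2 signal of Cy5 (lung, red circles) and Cy3 (reference, green squares) for Spon2 (left) and Spon1 (right) in the 14 groups. The reference stays between 10.88 and 11.17 for Spon2 and between 5.99 and 6.14 for Spon1, while Cy5 of Spon2 runs from 9.18 to 11.18.

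Several of the genes whose level went most closely with Spon2 belong to the circadian clock, the daily oscillator in which Arntl and Clock switch on their own repressors. Over the 14 group means, among 13715 genes with a probe well above background on at least 35 arrays, the highest Pearson r was with Ccnjl, a cyclin-like gene (0.865), Unc13d, which acts in granule release (0.861), Nfil3, a clock-controlled repressor (0.860), Eln, the elastin gene (0.853), and Mast1, a kinase gene (0.848). The lowest was with Rap1gap, an inactivator of the small GTPase Rap (-0.928), Per2, a core clock repressor (-0.902), Dbp (-0.896), Avpi1 (-0.882) and Nr1d2, the nuclear receptor Rev-erb beta (-0.878). Arntl had r = 0.840 and ranked 10th from the top. The 14 points share their controls' days, slides and reference, so these values are a description. Among the points are the NRCWE-030 groups and the controls of day 28, on which Spon2 was picked.

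Clock genes also stood at both ends when the group means were taken out. Over the 69 deviations from the group means, the highest r was with Nfil3 (0.702), Arntl (0.636), Ccnjl (0.614), Mogs, a glucosidase of glycoprotein processing (0.606), and Sprr1a, a small proline-rich protein of epithelia (0.592). The lowest was with Dbp (-0.737), Nr1d2 (-0.701), Per2 (-0.619), Cipc, a repressor that binds CLOCK (-0.614), and Hlf, a relative of Dbp (-0.588). Only 20 of 13715 genes passed 0.5 in size, and 6 of these were among the 15 measured genes of a list of 18 clock genes that was set up with earlier results known. The arrays share slides and a reference, so these values are a description.

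The likeness kept its sign on both days and without the array that stood apart. With Dbp the deviations gave r = -0.725 on the 35 arrays of day 1 and -0.776 on the 34 of day 28, and -0.650 over all arrays but replicate 3 of the day 1 controls. With Nfil3 they gave 0.678, 0.745 and 0.679, and with Arntl 0.644, 0.626 and 0.486. Spearman rho over the 69 deviations was -0.721 for Dbp, 0.739 for Nfil3 and 0.454 for Arntl. Per2 was less even, with -0.768 on day 1 and -0.365 on day 28.

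**Figure D5:**
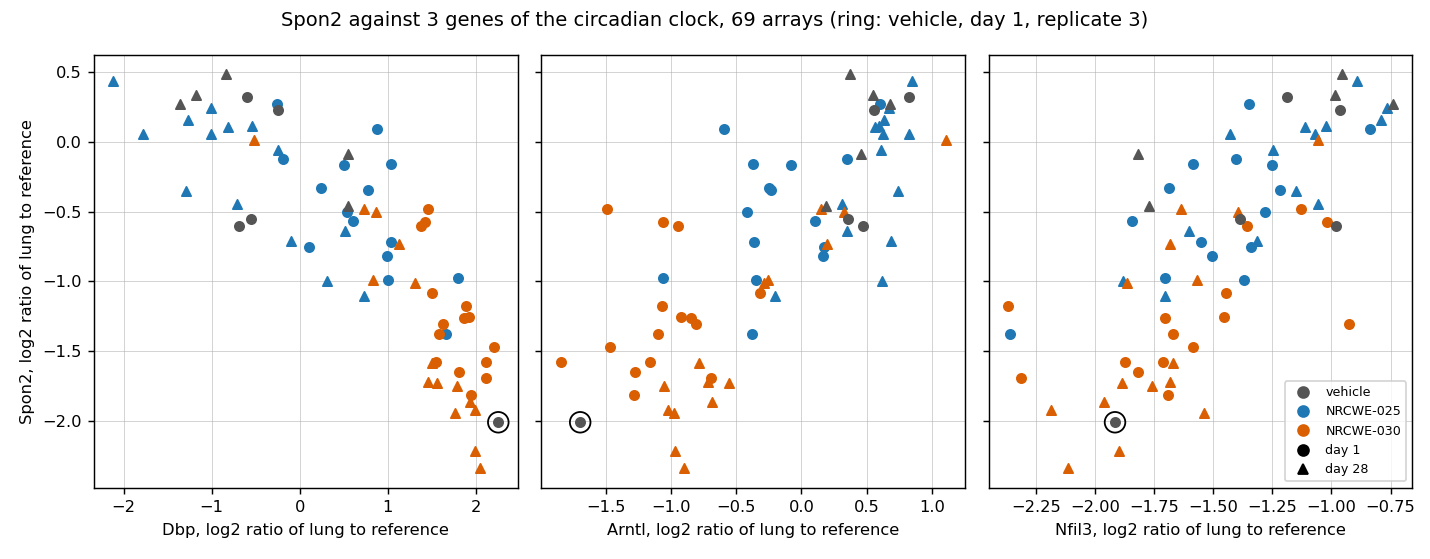
Spon2 against Dbp (left), Arntl (middle) and Nfil3 (right), each as the log2 of Cy5 over Cy3, with 1 point per array (69 arrays), colours and shapes as in the plot of the groups. The ringed array, replicate 3 of the vehicle controls of day 1, lies beside the NRCWE-030 arrays and away from the other vehicle arrays in the Dbp and Arntl panels, with Spon2 at -2.01.

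Clock genes were called with the high dose of NRCWE-030 on both days. On day 28 at 162 µg of NRCWE-030, 5 of 18 clock genes were called beside 0.0964% of all genes: Arntl fell by 1.37 ± 0.18, and Dbp rose by 2.27 ± 0.34, Hlf by 1.22 ± 0.16, Nr1d2 by 0.92 ± 0.14 and Per2 by 0.74 ± 0.12, with adjusted p values of limma from 0.00125 to 0.0112. The list's median was 0.25 and that of all genes -0.002. On day 1 at the same dose 3 of 18 were called beside 1.69% of all genes: Arntl fell by 1.51 ± 0.32, and Dbp rose by 1.79 ± 0.39 and Bhlhe40, a repressor of the clock, by 0.82 ± 0.15. None of the 18 was called with 162 µg of NRCWE-025 on day 1 (median 0.08) or day 28 (median 0.005), beside 0.209% and 0.0161% of all genes. The clock list was set up with earlier results of these data known. Its counts of called genes and their p values, with and without replicate 3 of the controls, are therefore a description.

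The day 1 calls of the clock genes depended on replicate 3 of the controls. Without it 7 of 18 were called with 162 µg of NRCWE-030, beside 1.37% of all genes, among them the 3 called with it: Arntl was at -1.96 ± 0.15 and Dbp at 2.34 ± 0.17. With 162 µg of NRCWE-025, 3 of 18 were then called, beside 0.22% of all genes: Arntl at -1.11 ± 0.18 (adjusted p = 0.0306), Dbp at 1.57 ± 0.28 (adjusted p = 0.0309) and Nr1d2 at 0.99 ± 0.18 (adjusted p = 0.0309). No difference in the clock genes between the materials was tested. Neither the part of the clock genes nor that of the hour of collection in the level of Spon2 was tested.

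Some genes on the lists of spondin partners were called on day 1. The list for mindin held 9 genes: integrins, lipopolysaccharide receptors and Myd88, the adaptor of Toll-like receptors, which is not itself a receptor. With 162 µg of NRCWE-030 on day 1, 2 of them were called, beside 1.69% of all genes. They were Itgam, the alpha M integrin of phagocytes (0.46 ± 0.10, adjusted p = 0.0197), and Myd88 (0.42 ± 0.10, adjusted p = 0.0372). The list's median was 0.32. Without replicate 3 of the controls Itgam was called (0.45 ± 0.11, adjusted p = 0.0417), Myd88 was not (0.39 ± 0.11, adjusted p = 0.0829), and Itga5, the alpha 5 integrin, was (0.43 ± 0.10, adjusted p = 0.0466). On day 28 none of the 9 was called at this dose of NRCWE-030, beside 0.0964% of all genes, with a median of 0.16. With 162 µg of NRCWE-025 none was called on day 1 (median 0.22) or day 28 (median 0.07), beside 0.209% and 0.0161% of all genes. Of 8 partners of F-spondin, Vldlr, a lipoprotein receptor, was the 1 called, at -0.63 ± 0.12 (adjusted p = 0.00949) with 162 µg of NRCWE-030 on day 1 and at -0.63 ± 0.13 (adjusted p = 0.0217) without that control. None of the 34 tested genes of other thrombospondin repeat proteins was called with 162 µg of either material on either day, beside 0.209% and 0.0161% of all genes with NRCWE-025 and 1.69% and 0.0964% with NRCWE-030, and the list's medians lay between 0.02 and 0.08.

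Markers of some other cells were lower in the same comparison as Spon2. On day 28 at 162 µg of NRCWE-030, where 0.0964% of all genes were called, all 6 neutrophil markers were lower than in the controls, 1 of them called (Mmp9, a matrix metalloprotease, -1.11 ± 0.16, adjusted p = 0.00289), with a median of -0.83; with 162 µg of NRCWE-025 the median was -0.61 and none was called. The mean level of these 6 ran from 1.81 to 2.17 over the arrays with NRCWE-030 and from 2.03 to 3.34 over the controls. The day 28 controls had the highest group mean of the 14 groups, 2.81. All other groups lay between 2.05, with 162 µg of NRCWE-030 on day 28, and 2.54, with the same dose on day 1. The day 1 controls were at 2.24. The 6 mesothelium markers had a median of -0.61 with none called, and their mean level ran from -0.36 to 0.70 against 0.56 to 0.76. Smooth muscle (8 markers) and fibroblast (8 markers) had medians of -0.15 and -0.23, with none called. Fat and heart muscle markers both had a median of -0.71 and the 5 macrophage markers one of 0.37, also with none called. The mesothelium, fat and heart muscle medians were negative in the other 162 µg comparisons too. With NRCWE-025 on day 1 they were -0.37, -1.19 and -1.36, and on day 28 -0.29, -0.64 and -0.18. With NRCWE-030 on day 1 they were -0.51, -0.78 and -0.47. The deviations of Spon2 over the 69 arrays had r = 0.351 with those of the neutrophil list and -0.046 with those of the mesothelium list, and the part of these cells in Spon2 was not tested.

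On day 1 at 162 µg of NRCWE-030, where 1.69% of all genes were called, 1 of the 6 neutrophil markers was called, Csf3r, the receptor of a neutrophil growth factor (1.25 ± 0.20, adjusted p = 0.00262), and the list's median was 0.32. Pdgfra, of the fibroblast list, was called at -0.55 ± 0.14 (adjusted p = 0.0463), and Cidec, of the fat list, at -1.36 ± 0.31 (adjusted p = 0.0306). Without replicate 3 of the controls Csf3r was called at 1.20 ± 0.21 (adjusted p = 0.00839), Pdgfra (adjusted p = 0.0552) and Cidec (adjusted p = 0.0648) were not, and Ms4a1, of the B cell list, was, at -1.0 ± 0.17 (adjusted p = 0.00703). Of the cartilage markers Matn1 and Cnmd were well above background on no array.

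No difference of Spon1 passed the test with either material. Its lowest group mean was 2.71 ± 0.58 (SD), with 54 µg of NRCWE-025 on day 28. The highest was 3.35 ± 0.13, with 162 µg of NRCWE-030 on day 28. The largest gap between neighbours in the order of group means, 0.21, was below the pooled SD of 0.40. That SD is the spread of single arrays, so this is not a test of the means. The controls of day 28 were at 2.93, 3.20, 3.51, 2.98 and 2.96 and those of day 1 at 2.60, 3.08, 3.11, 3.66 and 3.18. The arrays with 162 µg of NRCWE-030 on day 28 were at 3.26, 3.44, 3.27, 3.53 and 3.24, inside or just above the range of their controls.

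The 12 differences of Spon1 from control lay between -0.40 ± 0.24, at 54 µg of NRCWE-025 on day 28, and 0.23 ± 0.17, at 162 µg of NRCWE-030 on day 28. The adjusted p of the latter was 0.817 (exact permutation p = 0.0873) and its interval ran from -0.13 to 0.59. None of the 12 was called, and the F-tests over doses gave adjusted p values of 0.954 and 0.921 for NRCWE-025 on days 1 and 28, and 0.974 and 0.918 for NRCWE-030. Without replicate 3 of the controls the 6 day 1 differences lay between -0.20 ± 0.26 and 0.12 ± 0.27, and the day 1 F-tests gave adjusted p values of 0.959 for NRCWE-025 and 0.979 for NRCWE-030. Nor did the tests of the materials pass (adjusted p = 0.898 on day 1 and 0.969 on day 28), where the largest difference was 0.48 ± 0.24 at 54 µg on day 28 with an interval from -0.01 to 0.97. The 95% intervals of the 12 differences reached from -0.90 to 0.64 on the log2 scale, so changes within them were not detectable at this spread.

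The probes of Spon1 agreed less than those of Spon2, with r = 0.734 over arrays. With 162 µg of NRCWE-030 on day 28 A_51_P151902 was at 0.14 ± 0.25 from control and A_52_P242321 at 0.32 ± 0.12 (adjusted p = 0.687 in the fit of all probes). Their median signals over background were 864.5 and 240.0 in Cy5 and 28.0 for both in Cy3. The Cy5 channel alone gave 12 differences of Spon1 from -0.33 to 0.22, none called.

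The level of Spon1 went with a property of the whole array. Its deviations from the group means correlated with r = 0.582 over 69 arrays with the spread of all log2 ratios on the array, whose SD over genes ran from 0.946 to 1.19, and those of Spon2 with r = -0.299. The genes with the highest r over the deviations were Zfp874a (0.866), Cyp2j6, a cytochrome P450 (0.863), Fam210b (0.856), Aox3, an aldehyde oxidase (0.853), and Bmp6, a bone morphogenetic protein (0.848). The lowest were Cenpf, a kinetochore protein of dividing cells (-0.804), Tpmt (-0.783), Hmga2, a chromatin protein of embryonic cells (-0.782), Mtfr2 (-0.777) and Rundc3b (-0.776). The 5 highest had group means above 0 throughout, on the side of the lung, and the 5 lowest below 0, on the side of the reference. In all 2466 of 13715 genes passed 0.5 in size with Spon1, against 20 with Spon2.

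Over the 14 group means Spon1 was most like Igfbp7, an insulin-like growth factor binding protein of vessels (0.935), Cndp2 (0.924), Prmt8 (0.923), Hgsnat (0.913) and Nup88 (0.911). It was least like Pus3 (-0.912), Sfxn3 (-0.902), Zfp768 (-0.873), Mkx (-0.872) and Gpx8 (-0.869). Among cell marker lists its deviations had the highest r with the 5 endothelium markers (0.602) and the 4 red blood cell markers (0.544), and the part of these cells or of the array's spread in Spon1 was not tested. Between Spon1 and Spon2 the deviations had r = -8.52e-05 and the 14 group means r = -0.561.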

How the data were processed

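Per the file headers, the arrays (19 slides, 11 scan days) were read with Agilent Feature Extraction 11.0.1.1. The deposited scanner files hold median spot and local background intensity per colour, uncorrected, beside flags of 0 or 1 per the file headers, and the scanner software's log ratio, a deposited log10 of Cy5 over Cy3 after its own background and dye correction. The deposited series matrix holds log2 ratios of Cy5 over Cy3 that the authors normalized by LOWESS, array by array.

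Background was corrected by normexp (offset 50) on the median signals. Local backgrounds marked as non-uniform or outlying (1.53% in Cy5, 1.11% in Cy3) were replaced by the median of the others on the array. Loess within each array followed, with control spots at weight 0 and marked spots left out. Of 45018 spots 43379 were not controls. Spots of a probe and probes of a gene were combined by the median. Of 41174 probes 27501 (66.8%) had a RefSeq symbol (assembly GRCm38.p6, for names only, since the array design refers to an earlier assembly). Genes without a value on some array were left out, which left 18664.

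Tests were limma 3.58.1 (R 4.3.3) with Benjamini-Hochberg adjustment over all genes, called under 0.05: 4 groups of a material and day in 1 fit for doses, and all 14 groups in 1 fit for materials and days. Permutation tests were exact and two-sided. The steps were checked on simulated data. Plots used matplotlib 3.10.9 in Python 3.11.15. Alternatives were other background corrections and normalizations, filters, blocks of slide or scan day, and each array left out.

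Named genes are both members with each probe, the 5 of highest and lowest r with each, list members called at 162 µg (up to 4 per list by p in any fit), and Arntl, Dbp and Per2. Bhlhe40, Itga5 and Ms4a1 fall outside this rule and were named after their values were seen, as were the array and cell marker values beside a result. Members and lists were chosen with earlier results of these data known. Replicate numbers follow the order of deposit. No interval of counting applies, and precision rests on the number of arrays.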

Additional observations from a re-analysis of the deposited data

How the results depend on the processing

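By replicate number, no paired analysis was possible because the labels give none and the numbers used here follow the order of deposit; arrays of 1 slide were compared with each other. With one choice changed at a time, 506 planned results kept their direction and their side of the threshold or stayed within the spread, while 13 reversed, 4 passed the threshold and 2 moved; for the Cy5 channel alone 36 did the same, 1 reversed and 1 passed, added after seeing the data. The F-test of Spon2 between the materials on day 1 (adjusted p = 0.0899) came to 0.0163 with slide as a random block, 0.0375 with the scanner log ratio, 0.0499 with scan day as a fixed block and 0.0257 with Cy5 alone, and lay between 0.0512 and 0.257 in the other 10 settings. It ran from 0.0448 to 0.195 with 1 of the 30 treated day 1 arrays left out. Its 18 µg difference was -1.23 (adjusted p = 0.0497) with slide as a random block. With 1 array left out, the NRCWE-030 162 µg difference of Spon2 from control ran from -2.24 to -2.0 on day 28 and from -1.04 to -0.46 on day 1. The small differences of Spon2 with NRCWE-025 on day 1 turned sign with a block: 54 µg to 0.42 with scan day, 0.68 with slide as a fixed block and 0.042 with slide as a random block, and 162 µg to 0.15 and 0.47 with scan day and slide as fixed blocks. With 1 array left out they ran from -0.067 to 0.51 at 18 µg, -0.50 to 0.078 at 54 µg and -0.47 to 0.11 at 162 µg, the low end in each without replicate 3 of the controls and the high end without replicate 4. The day 28 minus day 1 difference of Spon2 in controls moved to 1.48 when slide was a fixed block and to 0.84 when replicate 4 of day 1 was left out. Arrays of the 2 days lay on different slides, except replicate 5 of NRCWE-030 at 18 µg on day 28. The 1.48 therefore rests on that array as the link between the days. No difference of Spon1 was called under any setting, but its sign was not settled. At 162 µg of NRCWE-025 it was 0.0077 with probe A_52_P242321 and 0.20 with scaling between arrays on day 1, and 0.032 with Cy5 alone, 0.24 with no background correction, 0.025 with probe A_52_P242321 and 0.22 with the series matrix on day 28 (-0.23 to 0.091 with 1 array left out). At 162 µg of NRCWE-030 on day 1 it was -0.033 with probe A_51_P151902, -0.12 with scan day and -0.36 with slide as fixed blocks (-0.0046 to 0.26 with 1 array left out). The lowest of its 12 differences was -0.82 with local backgrounds as deposited. Causes were not tested. The dim Cy3 signal of Spon1 limits its ratios.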
